A study of Schizosaccharomyces pombe with 56 samples.

Results

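Dimethylation of lysine 9 of histone H3 (H3K9me2) was measured by ChIP-seq in fission yeast (Schizosaccharomyces pombe), and the regions described here are those where the mark stood at the lowest value of the authors' table before nitrogen starvation and well above it after 24 h. They were chosen from the 2192 regions of the authors' deposited table by 3 values: a 0 h mean below 0.8 normalised reads, a 24 h mean of 16 normalised reads or more, and a width of at most 10000 bp. At 0 h 1154 regions stood at the lowest value the table holds, 0.770 normalised reads, and all chosen regions are among them. The rule found 456 of the 2192 regions and took no account of the p-value. Both group means chose these regions, so their 24 h and 0 h values are a description and not a finding.

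The groups compared were wild type of strain 975 h+ after 24 h of nitrogen starvation in EMM -N, a minimal medium, and the same strain at 0 h, the control, which was grown in EMM with adenine, histidine, leucine, lysine and uracil. Both were kept at 32C, both were precipitated with the antibody abcam 1220, and the labels list 6 H3K9me2 libraries each. The labels give neither group a deletion or a transgene. The series title asks about survival in quiescence and the use of Clr4 outside heterochromatin. The name of the table's sheet holds the digits 1, 3, 4, 5 and 6, and the overall mean of each region equalled the plain mean of both group means, so 5 libraries per group were assumed. Input libraries are listed for 4 of the 6 H3K9me2 libraries of each group, and for replicates 3 and 4 none is listed. The labels also list strains without clr4 or ago1, a 1 h time point and H3K9me3 libraries, which are not analysed here. The deposited values are means per group, with no depth and no spread per library, and no SD or n can stand beside them.

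In fission yeast a single enzyme, the methyltransferase Clr4, places H3K9 methylation. In growing cells the mark fills centromeres, chromosome ends and the silent mating-type cassettes, where chromodomain proteins such as Swi6 bind it and small RNAs carried by Argonaute help to direct it. Cells without nitrogen stop dividing, mate if a partner is present or otherwise enter a long-lived resting state, quiescence, in which translation and growth metabolism are turned down. Genes that are strongly expressed in growing yeast favour a small set of codons, and the degree of that preference is a fixed property of a gene's sequence.

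Almost all of the 456 regions lay over the bodies of protein-coding genes. To show what kind of sequence this is, 45 codons from the middle of the coding sequence are printed for 6 genes, with capitals for codons that are the most frequent choice for their amino acid in ribosomal protein genes. Methionine and tryptophan have 1 codon each, which was not ranked and is in lower case. All 6 stretches lie inside their region and are given 5′ to 3′ on the coding strand, from RefSeq, build ASM294v3. The first 3 are the intron-free genes with the highest 24 h mean among regions over 1 gene that had signal in 3 of the 24 h libraries, and the last 3 those among regions with signal in 1 library.
tef3 (chrIII:1687172-1687306, plus strand): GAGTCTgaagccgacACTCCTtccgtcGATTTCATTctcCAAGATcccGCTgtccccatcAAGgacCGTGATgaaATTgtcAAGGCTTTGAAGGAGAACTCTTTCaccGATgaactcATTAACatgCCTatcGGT
pma1 (chrI:3873231-3873365, minus strand): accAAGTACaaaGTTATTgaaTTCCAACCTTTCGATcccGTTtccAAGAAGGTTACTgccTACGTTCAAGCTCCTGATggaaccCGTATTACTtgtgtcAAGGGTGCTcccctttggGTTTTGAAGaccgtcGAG
pyk1 (chrI:3845709-3845843, minus strand): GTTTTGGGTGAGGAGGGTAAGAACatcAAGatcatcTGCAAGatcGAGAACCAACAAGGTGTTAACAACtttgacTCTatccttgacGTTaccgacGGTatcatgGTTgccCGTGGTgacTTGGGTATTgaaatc
ght7 (chrII:39298-39432, minus strand): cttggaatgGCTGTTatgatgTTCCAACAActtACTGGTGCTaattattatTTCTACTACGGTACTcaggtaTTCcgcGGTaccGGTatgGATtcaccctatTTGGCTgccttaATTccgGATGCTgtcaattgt
bfr1 (chrIII:711644-711778, minus strand): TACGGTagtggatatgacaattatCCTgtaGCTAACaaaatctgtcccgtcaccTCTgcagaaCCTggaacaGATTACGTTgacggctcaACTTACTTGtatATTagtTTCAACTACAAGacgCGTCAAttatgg
tcb2 (chrIII:535038-535172, plus strand): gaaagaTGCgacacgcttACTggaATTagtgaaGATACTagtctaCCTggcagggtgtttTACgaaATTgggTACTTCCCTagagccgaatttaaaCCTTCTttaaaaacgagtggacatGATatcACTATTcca

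Over the whole gene, the share of preferred codons was 67.6% in tef3, which encodes translation elongation factor 3, 67.7% in pma1, the proton pump of the plasma membrane, and 63.3% in pyk1, pyruvate kinase. In the genes with signal in 1 library it was 47.7% in the hexose transporter gene ght7, 46.1% in bfr1, which encodes a drug efflux transporter, and 41.3% in the membrane tether gene tcb2, which also reaches under a second region, shared with eft202. The median over 4965 protein-coding genes outside the ribosomal proteins was 39.2%.

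The region with the second highest 24 h mean held no protein-coding gene and lay over tRNA genes beside centromere II, 880 bp from the nearest region of that domain. Its 4 tRNA genes are printed because tRNA genes are known to border fission yeast centromeres, with capitals for the letters GTTCNANNC, the core of the B box that binds the transcription factor TFIIIC. A search of each gene in the sense of its tRNA found these letters in 156 of 171 nuclear tRNA genes (91.2%) and in 3 of these 4. The first of them, tRNA-Ile, lies only in part under the region.
tRNA-Ile (chrII:1645424-1645497, plus strand): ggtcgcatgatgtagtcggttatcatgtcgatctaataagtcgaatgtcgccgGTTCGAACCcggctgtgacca
tRNA-Ala (chrII:1645571-1645644, minus strand): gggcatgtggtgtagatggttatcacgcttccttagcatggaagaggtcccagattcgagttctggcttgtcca
tRNA-Val (chrII:1646305-1646387, minus strand): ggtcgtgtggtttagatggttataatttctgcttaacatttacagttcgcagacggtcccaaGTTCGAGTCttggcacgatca
tRNA-Glu (chrII:1646829-1646900, minus strand): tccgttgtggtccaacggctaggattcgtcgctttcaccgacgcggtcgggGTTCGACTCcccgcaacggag

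The 24 h means of the 456 regions ran from 16.0 to 425 normalised reads, with a median of 27.8 and quartiles of 20.5 and 44.0, against 0.770 normalised reads at 0 h in each of them. A fold over a group at its minimum is a bound, set here with 3 counts per library (2.31 normalised reads in the mean). The 24 h means were at least 6.93-fold to at least 184-fold higher, with a median bound of 12.0. At the threshold the values formed a continuum. The 5 regions just inside it, with tbf1, SPOM_SPCC1529.01, pdk1, rpo41 and erd101 as main genes, had 24 h means of 16.0, 16.1, 16.3, 16.3 and 16.3 normalised reads, and the 5 just outside, with sec6, laf1, rsd1, odc1 and yme1, had 15.9, 15.9, 15.8, 15.8 and 15.7. The only region left out for its width covered mcs2 and tra1, a subunit of the SAGA complex, over 10726 bp with a 24 h mean of 55.1.

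By the FDR of the authors' deposited table, 268 of the 456 regions passed a threshold of 0.05 and are named called here, and the remaining 188 were listed with a p of 1, so that no region of the set fell between the 2 outcomes. Of the 2192 listed regions, 20.7% were called higher at 24 h, and 32.7% of the 1385 with a p below 1. Since the rule used the same contrast, nothing is read from the count of 268. The largest FDR among them was 0.00947 in the authors' deposited table.

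The values per library set these outcomes apart. Whole reads per library could be recovered from the deposited means for 454 of the 456 regions, under the assumption of 5 libraries per group. At 24 h the search allowed signal in 3 libraries and at 0 h in 2. The 3 are called A, B and C here because they cannot be tied to the replicate numbers of the labels. The search gave the remaining 2 libraries at 24 h no reads, so their minimum in each of the 454 regions is an assumption. One read was worth 0.798 normalised reads in library A, 1 in library B and 0.744 in library C, and at 0 h the 2 libraries with signal elsewhere in the table, D and E, had none here, as the rule requires. Library A had signal in 451 of the 454 regions, library B in 294 and library C in 106. Summed over them, 69.9% of the normalised reads above the minimum lay in library A, 23.5% in library B and 6.59% in library C, and library A was the highest of the 3 in 417 regions. In the 1720 other regions of at most 10000 bp, signal lay in library A at 89.9%, in B at 42.4% and in C at 13.7%, so the same order held outside the set.

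Of the 268 called regions, 93 had signal in all 3 libraries, 167 in A and B, 5 in A and C, 1 in B and C, and 2 could not be recovered. Of the 188 listed with a p of 1, 151 had signal in library A alone, 30 in A and B, 3 in all 3 libraries, 2 in A and C and 2 in library C alone. The library with the most signal held a median of 62.9% of a called region's reads (range 38.9% to 90.1%), and of a region listed with a p of 1 a median of 100% (range 88.5% to 100%). Without library A, 122 of the 454 regions kept a mean of 16 or more over the remaining 4 libraries, against 413 without library B and 449 without library C. limma was fitted to the recovered values of 2174 regions, with libraries without recovered signal set to 0 and a Benjamini-Hochberg adjustment. It called 0 regions at 0.05 (0%). By its unadjusted p it called 73 of the 2174 at the same threshold (3.36%), of which 70 belonged to the set. The rule chose the set by the same values that limma compares, so where these calls fall says nothing about the regions. The smallest adjusted p in the set was 0.611. With 1 library left out, regions of the set with an unadjusted limma p below 0.05 were counted anew. Their number was 24 without A, 3 without B, 2 without C, 33 without the 0 h library D and 39 without the 0 h library E. It was 90 and 44 without 1 of the libraries at their minimum at 24 h and at 0 h. The part of single libraries in the set was not tested.

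**Figure D1:**
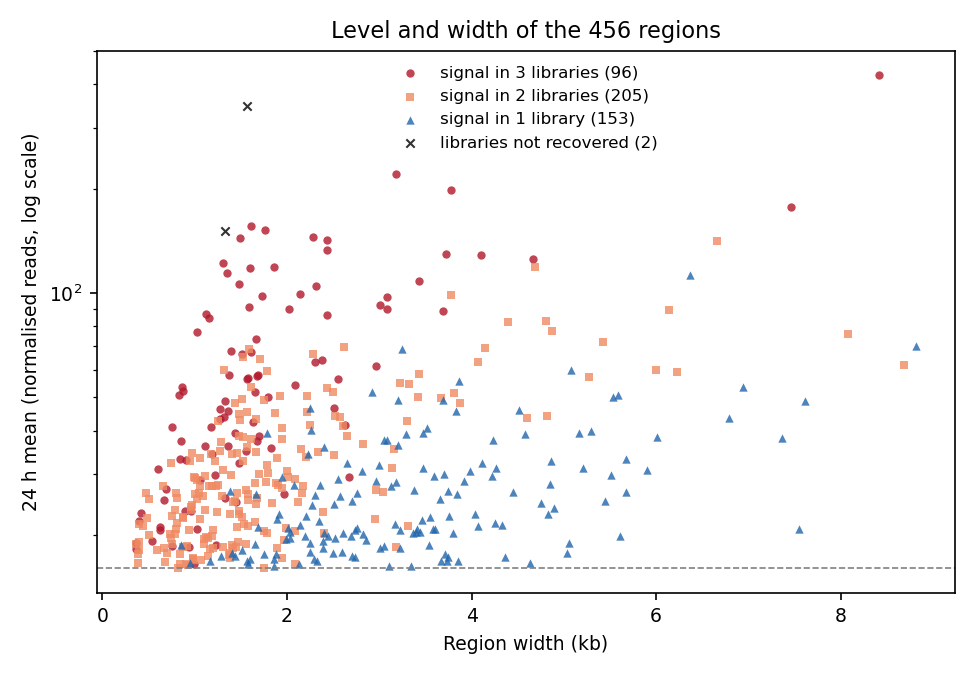
Each point is 1 of the 456 regions, with its width in kb on the x axis and its authors' 24 h mean in normalised reads on a log y axis; colour and shape give the number of 24 h libraries with recovered signal, and the dashed line marks the threshold of 16. Regions with signal in 1 library (153) were wider, with a median of 3203 bp, against 1503 bp for those with signal in 3 libraries (96).

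The 12 regions with the highest means lay over genes of varied roles and over the tRNA genes shown above. Highest was an 8413 bp region at chromosome I 3982702 to 3991114 (build ASM294v2) over pfl2, which encodes a flocculin of the cell surface. At 24 h it had 960 normalised reads above the minimum in library A, 709 in library B and 450 in library C, against none in any library at 0 h, and its mean was at least 184-fold higher. All 3 libraries were high, in the order A, B, C. At tef3 the 24 h libraries held 572, 353 and 171 normalised reads in A, B and C, against none at 0 h. At pma1 they held 508, 287 and 190, against none at 0 h. The same order held at both genes.

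The region over pyk1, chromosome I 3844890 to 3846504, had 340, 273 and 163 normalised reads in libraries A, B and C at 24 h, against none at 0 h. At ssa2, an Hsp70 chaperone gene, libraries A, B and C held 307, 316 and 130 at 24 h, against none at 0 h. Here library B was the highest, and it exceeded library A at 33 of the 454 regions. The ammonium transporter gene amt1 had 252, 319 and 135 in A, B and C at 24 h, against none at 0 h. The 3 libraries also shared signal at psu1, a cell wall glucosidase gene, and at lsd90, whereas at ura1, which encodes the enzyme of the first steps of pyrimidine synthesis, A and B held 497 and 202 and library C was at its minimum. The region over the tRNA genes beside centromere II, at chromosome II 1645479 to 1647041, reached 347 normalised reads in the 24 h mean and had the smallest FDR of the set, 4.81e-09 in the authors' deposited table, and with tef102, an elongation factor 1A gene, it was 1 of the 2 regions whose libraries could not be recovered. The elongation factor 1A genes are near-identical, and how reads were shared between them is uncertain.

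**Figure D2:**
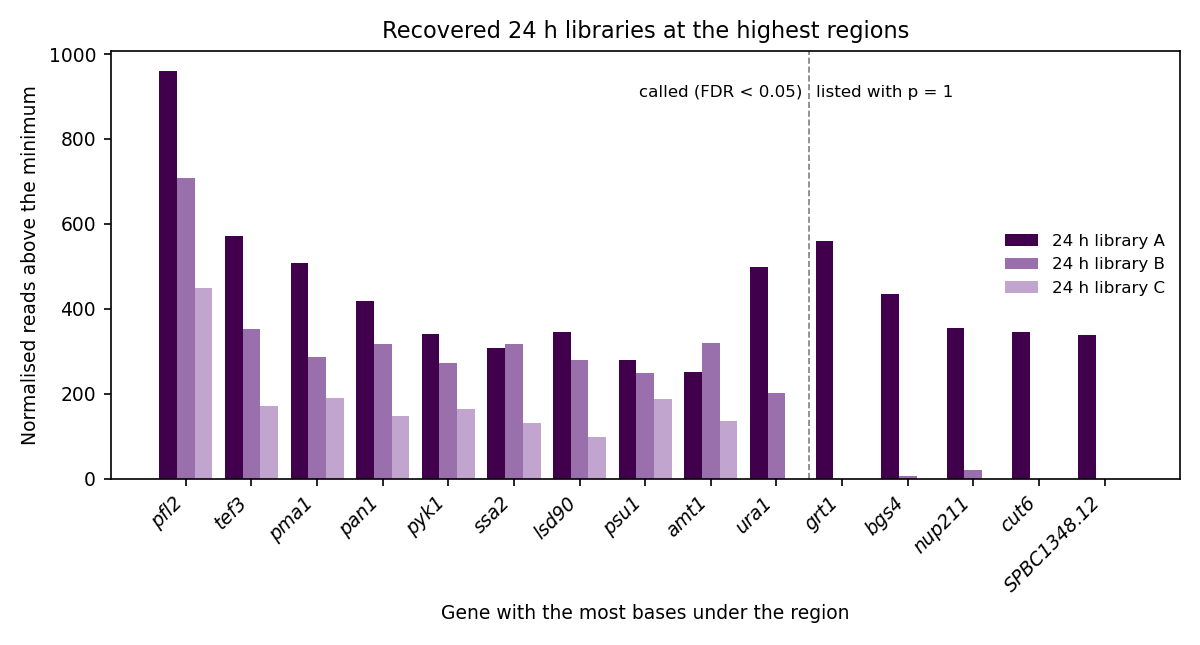
Bars give normalised reads above the minimum in the 24 h libraries A, B and C for the 10 highest called regions with recovered libraries, left of the dashed line, and for the 5 highest regions listed with a p of 1, right of it, named by the gene with the most bases under the region. Called regions had 2 or 3 libraries with signal, while at grt1, cut6 and SPOM_SPBC1348.12 library A held all of it.

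Among the regions listed with a p of 1, the highest covered grt1, a transcription factor gene, with fah1 and SPOM_SPBPB8B6.02C, at chromosome II 44789 to 51156. It had 561 normalised reads in library A at 24 h, more than the 508 at pma1, and none in B or C at 24 h or in any library at 0 h. At bgs4, which encodes a glucan synthase of the cell wall and septum, library A held 436 at 24 h and library B 6, against none at 0 h. At nup211, a gene of the nuclear pore basket, libraries A and B held 355 and 21 at 24 h, against none at 0 h. These regions were high in 1 library and at or near the minimum in the others. The fatty acid synthesis gene cut6 lay under the widest region of the set, 8812 bp with 347 in library A at 24 h and none elsewhere. The narrowest, 361 bp over mix17, had 29.5, 45.0 and 12.6 in libraries A, B and C at 24 h, against none at 0 h.

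Per kb of width, the order changed. The tRNA block stood highest with 222 normalised reads per kb at 24 h, followed by tef102 with 114, psu1 with 96.7, pyk1 with 96.6 and the enolase gene eno101 with 93.1, while pfl2 had 50.5 and pan1, a gene of the actin cortical patch that shares its 7457 bp region with tif302, had 23.8. Over the set the median was 16.7 per kb, 25.2 for the called regions and 9.04 for those listed with a p of 1. The median over the 697 regions that were also at the 0 h minimum but below 16 at 24 h was 4.64 per kb, a difference the rule fixes. The 456 regions covered 1078 kb in all.

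Position was not used by the rule. Of the 456 regions, 451 overlapped at least 1 protein-coding gene, 279 of them 1 gene, 157 of them 2 and 15 of them 3. The share, 98.9%, was the same as the 98.9% of the 1736 other regions of the table. With the gene that holds most of a region's bases taken as its main gene, 296 of 451 regions (65.6%) lay wholly within that gene, against 68.3% of the regions at the 0 h minimum below 16 at 24 h and 92.4% of the regions above the 0 h minimum. The median region began at 0.17 of the gene's length from its annotated start (quartiles 0.10 and 0.26) and ended at 0.91 (quartiles 0.83 and 1.10).

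The gene start was covered seldom and the gene end more often. The annotated start of the main gene lay under 32 of the 451 regions (7.10%) and the annotated end under 130 (28.8%). Regions at the 0 h minimum below 16 at 24 h gave similar shares, 6.14% and 26.9%, and regions above the 0 h minimum lower ones, 1.27% and 6.44%. Among the 456 regions the end was covered by 51 of 265 called ones (19.2%) and by 79 of 186 listed with a p of 1 (42.5%), and the called regions were narrower, with a median of 1465 bp against 3024.5 bp. The whole set had a median width of 1894.5 bp, against 1341 bp for regions at the 0 h minimum below 16 at 24 h and 1546 bp for regions above the 0 h minimum. Regions also overlapped other transcripts, lncRNA genes at 351 of 456 (77.0%, against 75.1% of all other regions), snoRNA genes at 3, a long terminal repeat at 1 and rRNA genes at 0.

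Retrotransposon genes of the Tf2 family were the main gene of 5 regions. They were also the 5 regions in which library C exceeded library A, and no other region of the 454 did so. At Tf2-4 library A held 55.1 normalised reads at 24 h, library B none and library C 200.1, against none at 0 h. At Tf2-11 libraries A and C held 61.5 and 141 at 24 h and B none, against none at 0 h, and at Tf2-6 libraries B and C held 40 and 149 and A none, against none at 0 h. Library C alone had signal at Tf2-1, with 175 normalised reads at 24 h, and at Tf2-10, with 157, against none at 0 h in either. The first 3 were called, with 24 h means of 51.8, 41.2 and 38.5, and Tf2-1 and Tf2-10, with 35.7 and 32.2, were listed with a p of 1. Of the 13 annotated Tf2 genes, 7 lay under no region of the table and Tf2-7 under a region outside the set, where library C held 132 and library A 7.98 normalised reads at 24 h, against 51.8 in library E and none in D at 0 h. The Tf2 copies are near-identical, so which copy the reads belong to is uncertain, and the part of library C in these values was not tested.

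**Figure D3:**
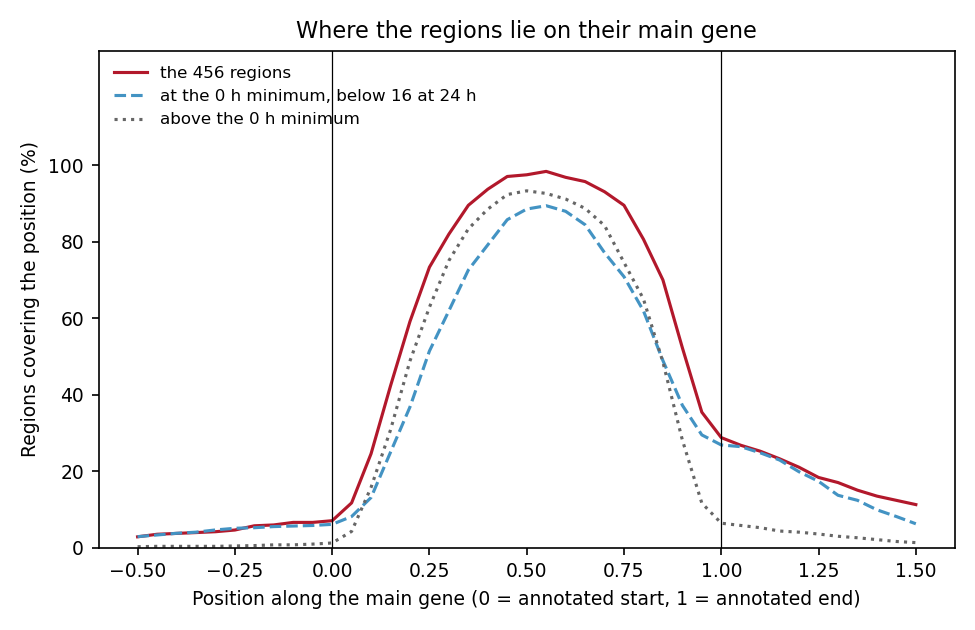
The x axis gives the position along the main gene of each region, from 0 at the annotated start to 1 at the annotated end, and the y axis the share of regions (%) that cover it; the solid line stands for the 456 regions (451 with a main gene), the dashed and dotted lines for the other 2 classes. The solid line reaches 97.6% at the middle of the gene and falls to 28.8% at its end, which in part follows from taking the gene with the most overlap as the main gene.

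Along the chromosomes most of the regions were scattered. Chromosomes I, II and III held 182, 167 and 104 regions, or 32.6, 36.8 and 42.4 per Mb, and 3 of the 4 regions on the separate contig AB325691 belonged to the set. The nearest other region of the set lay at a median distance of 8447 bp, and 300 regions had none within 5000 bp. On chromosomes I, II and III there were 59 pairs, 9 runs of 3 and 2 runs of 4. The 3 regions on contig AB325691 also lay within 5000 bp of each other and are not in this count. The main genes of the runs of 4 were cnt6, dhp1, Tf2-4 and nsp1 on chromosome I and tti1, SPOM_SPCC622.15C, epe1 and str2 on chromosome III. The runs of 3 included chromosome II 33367 to 51156, with SPOM_SPBC1348.12, ght7 and grt1, and 81444 to 89803, both near the start of that chromosome. Within 10000 bp of a heterochromatin domain, taken as a region with more than 600 normalised reads at 0 h, lay 8 of the 456 regions (1.75%), against 22 of the 1736 other regions (1.27%).

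Codon use, which the rule did not use, differed between the called regions of the set and its other regions. For each of 4965 non-ribosomal genes an adaptation index was computed from its coding sequence, with the codon frequencies of 131 ribosomal protein genes as the standard, and turned into a percentile. The 432 distinct non-ribosomal main genes of the 456 regions had a median percentile of 74.8, against 50.8 for the 663 genes under regions at the 0 h minimum below 16 at 24 h and 62.2 for the 1008 genes under regions above the 0 h minimum. Above percentile 90 stood 143 of the 432 (33.1%), against 9.50% and 13.7% in those classes. Of the regions in those classes 132 of 697 and 63 of 1027 were called, in either direction. Their genes were not split by call, so whether called regions outside the set have a like codon use was not tested. The ribosomal protein genes were left out because they define the standard, and they were the main gene of 19 further regions, all of them called.

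Within the set, called regions and those listed with a p of 1 had different values. The 246 genes under called regions had a median percentile of 90.6, and 127 of them (51.6%) stood above percentile 90. The 186 genes under regions listed with a p of 1 had a median of 56.2, with 16 (8.60%) above percentile 90. By library, 67.4% of the genes with signal in 3 libraries, 36.6% of those with signal in 2 and 7.95% of those with signal in 1 stood above it. Width moved with these shares, so they were also taken within bands of width: over 3000 bp, 50.0% of the 32 genes under called regions stood above percentile 90, against 5.26% of the 95 under regions listed with a p of 1. Between 1500 and 3000 bp the shares were 46.7% of 92 and 13.2% of 76, and up to 1500 bp 55.7% of 122 and 6.67% of 15. Among the 114 regions with the highest level per kb 73.7% of the genes stood above percentile 90, and among the 114 with the lowest 7.02%. All 114 of the highest were called and 7 of the lowest, with median widths of 1312 and 3588 bp. This split by level therefore largely repeats the split into called regions and those with a p of 1. The part of single libraries in these differences was not tested.

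**Figure D4:**
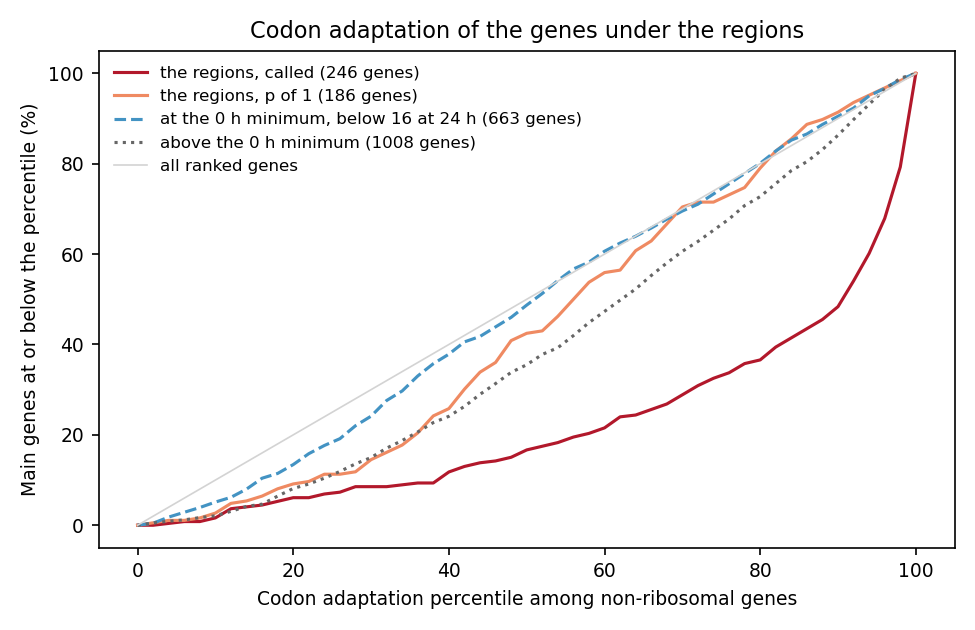
Cumulative share of main genes (%, y axis) at or below each codon adaptation percentile (x axis), with ribosomal protein genes left out; solid lines split the 456 regions into called ones and those listed with a p of 1, and the grey diagonal is the whole ranking. The line of the called regions stays far below the others, with a median percentile of 90.6. That of regions with a p of 1 lies near the classes outside the set, with a median of 56.2, and those classes are not split by call.

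Across genes of the set, the 24 h level per kb and the codon percentile had a Spearman rho of 0.53 over 432 genes. Width, by which the level was divided, and the percentile had a rho of -0.30 over the same genes. All points come from the same few libraries, and genes are no replicates of each other. Taken library by library the rho was 0.48 for A, 0.52 for B and 0.31 for C over 431 genes. Under the 1008 genes of regions above the 0 h minimum, which were not in the set, the rho was 0.33 for the 24 h level per kb and 0.00 for the 0 h level per kb. Under the 663 genes of regions at the 0 h minimum below 16 at 24 h, it was 0.09 for the 24 h level per kb. The rule cut the 24 h level at 16 in the set and in this last class, so the rhos of the classes cannot be compared. Coding sequences under the 456 regions had a median GC content of 42.2%, against 39.6% over all protein-coding genes, and 73.4% had no intron, against 53.3% of all protein-coding genes. Main genes were longer than average, with a median of 2462 bp against 1773 bp over all protein-coding genes, and the regions above the 0 h minimum lay over genes of a like length, 2635 bp.

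A total of 637 of 5113 nuclear protein-coding genes (12.5%) lay under the 456 regions by at least 1 bp, 331 under called regions and 306 under regions listed with a p of 1. This share is the background for the gene groups below. The lists were chosen with earlier results of these data known, they describe which genes the set holds, and no test is attached to them.

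Glycolysis and fermentation had the highest share, with 14 of 18 listed genes (77.8%) under the regions, 13 of them called. Signal lay in 3 libraries for 9 of these genes, in 2 for 4 and in 1 for 1. At eno101, which encodes enolase, libraries A, B and C held 248, 240 and 116 normalised reads at 24 h, against none at 0 h. At pdc101, pyruvate decarboxylase, they held 215, 228 and 141, against none at 0 h. Values at pgk1, phosphoglycerate kinase, were 253, 239 and 74.4, and at adh1, alcohol dehydrogenase, 227, 236 and 63.2, against none at 0 h. Libraries A and B were close to each other at these 4 genes, but not over the whole list. At pfk1, in a region shared with uba2, A held 323 and B 89 at 24 h. At pgi1, in a region shared with noc4, A held 121 and B none. Over the whole set A held 69.9% of the reads and B 23.5%. Of the other 4 genes of the list, 3 lay under regions outside the set and 1 under none.

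Chaperone and heat shock genes were next, with 14 of 27 (51.9%), 11 called and 8 in 3 libraries. Behind ssa2 stood sks2, a ribosome-associated Hsp70, with 119 normalised reads in the 24 h mean, hsp90 with 89.6 and the mitochondrial chaperonin gene mcp60 with 73.4, against 0.770 for each at 0 h. Translation factors lay under the regions at 8 of 35 (22.9%), all called and 7 with signal in 3 libraries. They were tef3, tif302, the elongation factor 1A copies tef101, tef102 and tef103, the elongation factor 2 gene eft202, tif51 and tif1. The regions of tif302, tef101, tef103 and eft202 also covered pan1, efr3, efm4 and tcb2, in this order. Reads there cannot be given to the factor genes alone. Of 131 ribosomal protein genes 33 (25.2%) lay under the regions, 29 called, with 8 in 3 libraries and 21 in 2. The highest, rpl1701, shared a 4872 bp region with osh2, and rpl1102 shared one of 5275 bp with pyr1 and another gene, so the reads there cannot be given to the ribosomal gene alone. Many ribosomal protein genes have near-identical copies too, with the same uncertainty.

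Genes of nitrogen starvation and amino acid response numbered 12 of 29 (41.4%), 10 of them called. After amt1 and ura1 came the GATA factor gene gaf1, with 367 and 222 normalised reads in libraries A and B at 24 h and none in C, against none at 0 h. Its region also covered dad5. The oligopeptide transporter gene isp4 had 257, 171 and 92.3 in A, B and C at 24 h, against none at 0 h, and the glutamine synthetase gene gln1 had 180, 159 and 91.5, against none at 0 h. Signal was in 3 libraries for 4 of the 12 genes and in 2 for 7.

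Transporters and pumps gave 15 of 41 (36.6%), 11 called. Besides pma1 they held pho84, a phosphate transporter gene whose region also covers the acid phosphatase gene pho1 (24 h mean 125), the hexose transporter gene ght8 (68.8) and the membrane transporter gene mfs3 (56.2). The cell wall and cell surface list had 10 of 27 (37.0%), 7 called: pfl2, psu1, bgs4 and ecm33 had the highest means, and pfl6 and pfl7 of the flocculin family lay under regions listed with a p of 1. Amino acid and nucleotide synthesis had 20 of 52 (38.5%), of which 10 were called and the other 10 had signal in library A alone. Its highest genes were ura1, the methionine synthase gene met26 with a 24 h mean of 133, the arginine synthesis gene arg4 with 108 and the leucine synthesis gene leu2 with 54.0. Mitochondrial energy genes lay under the regions at 9 of 34 (26.5%), 7 called. The highest were the malic enzyme gene mae2 (66.6), kgd1 of the oxoglutarate dehydrogenase (59.8), the ADP/ATP carrier gene anc1 (49.3) and the malate dehydrogenase gene mdh1 (36.1). The region of kgd1 also covered sul1. For lipid and sterol synthesis the count was 4 of 20 (20.0%), lsd90, the desaturase gene ole1 (90.9), cut6 and erg10 (28.8), 3 of them called.

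**Figure D5:**
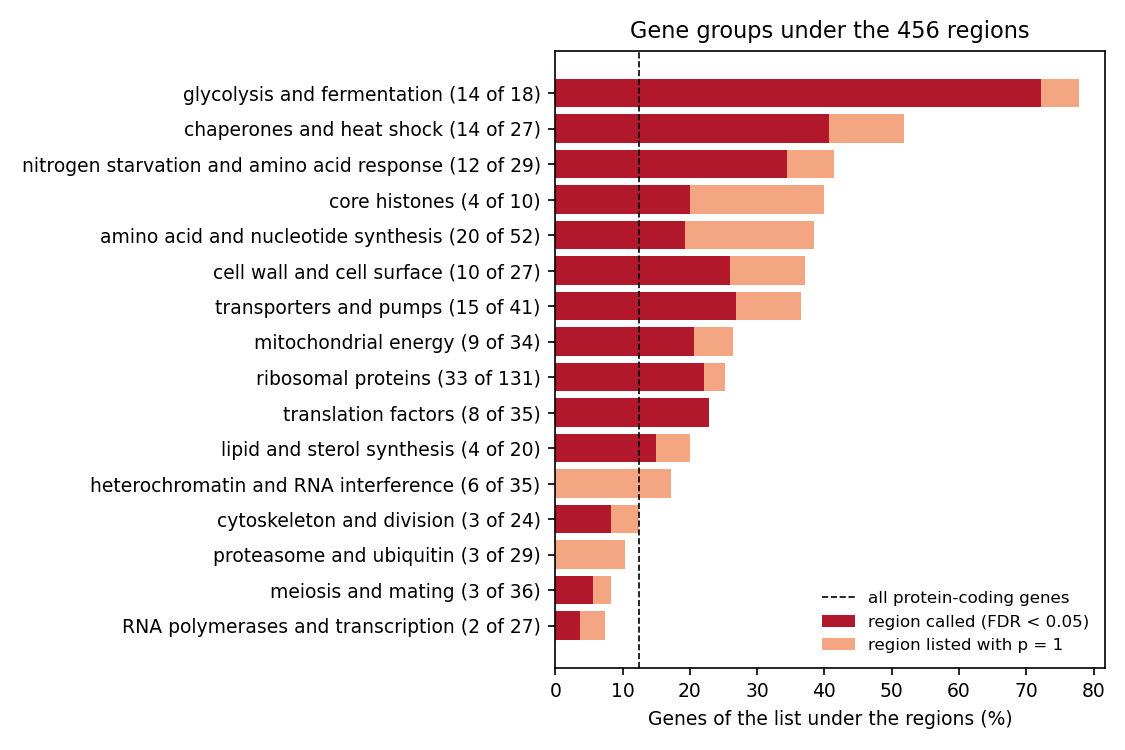
Share of each gene list (%) under the 456 regions, with the count of genes beside its name; dark bars are genes under called regions, light bars genes under regions listed with a p of 1, and the dashed line is the share of all protein-coding genes, 12.5%. Glycolysis and fermentation reaches 77.8%, and the 6 genes of heterochromatin and RNA interference are all under regions with a p of 1.

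The share was nearer the background for the remaining lists apart from the core histones. The heterochromatin and RNA interference list had 6 of 35 (17.1%) under the regions, and none of the 6 regions was called. They were clr4, the H3K9 methyltransferase gene, with a 24 h mean of 42.5, the chromatin chaperone gene spt16 (32.2), the RNA-dependent RNA polymerase gene rdp1 (31.3), epe1, whose product counters heterochromatin (26.3), the exonuclease gene dhp1 (21.2) and ago1, the Argonaute gene (19.3), against 0.770 for each at 0 h. At clr4 library A held 191 normalised reads at 24 h, library B 18 and library C none, and at ago1 A held 87.8, B 5 and C none, against none at 0 h. All 6 had most of their signal in library A, and library C was at its minimum at each. The regions of clr4, spt16, rdp1 and dhp1 each covered a second gene.

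Core histone genes numbered 4 of 10 (40.0%), under 2 regions: hht2 and hhf2, which encode histones H3 and H4, shared a called region with a 24 h mean of 19.7, and hta1 and htb1, for H2A and H2B, a region with sec5 at 21.4 that was listed with a p of 1. Of 36 meiosis and mating genes 3 (8.33%) lay under the regions, the meiotic regulator mei2 (66.7) and, with his6, the pheromone receptor gene map3 (18.8) under called regions and mam3 (22.5) under 1 with a p of 1. The list of cytoskeleton and division genes had 3 of 24 (12.5%), pan1, the actin gene act1 (59.8) and the cyclin gene cdc13 (16.4). Proteasome and ubiquitin genes had 3 of 29 (10.3%), none called, and RNA polymerases and transcription 2 of 27 (7.41%), the stress factor gene atf1 (63.1), which was called, and rpb3 (17.7), which was not.

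Regions without a protein-coding gene were 5 in all. Besides the tRNA block they were chromosome II 87538 to 89803 with a 24 h mean of 40.1, and on contig AB325691 the regions 11879 to 13315, 16232 to 18013 and 14162 to 15383 with 39.4, 39.3 and 32.6. At the first of these library A held 196 normalised reads at 24 h and libraries B and C none, against none at 0 h. On the contig library A held 157, 192 and 143, library B 30, none and 16, and library C had signal at 1 of the 3. The regions at 11879 and 14162 were called, and the 1 on chromosome II and that at 16232 were listed with a p of 1. The contig has no gene annotation in the reference used here.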

How the data were processed

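Wild-type chromatin was cross-linked, sonicated and immunoprecipitated with an H3K9me2 antibody, per the labels' protocols. The submitters' processing notes name Bowtie2 2.2.7, MACS2 2.1, DiffBind 1.16.3, DESeq2 and build ASM294v2, with no role or order. Input subtraction is not given in the sources used here. Not every H3K9me2 library has a listed input, and the part of the inputs in the values at the minimum was not tested.

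As the file headers show, the authors deposited log2 means of normalised reads per region and group, a log2 fold as 0 h minus 24 h (sign turned here), and a p-value and FDR per region. Depth per library is not in the tables, and it limits low values most. The tables hold group means, so the deposited FDR is described.

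The members and gene lists were chosen with earlier results of these data known. Each group mean was searched for whole reads per library (relative tolerance 3e-14, means up to 600). At 24 h 2175 of 2192 regions and at 0 h 2177 had 1 solution, shifted values had 0, and simulated means were recovered at 100%. The simulation used the fitted steps and the assumed number of libraries with signal, so it cannot check that number. The worth of 1 read came from the smallest means, for 3 libraries with signal at 24 h and 2 at 0 h; the last was divided by the whole number that resolved most means. limma 3.58.1 (R 4.3.3, mean trend, Benjamini-Hochberg) used log2(value + 1), with libraries without recovered signal set to 0, which understates folds of low regions. Its p-values measure the spread over the recovered values and these zeros, and not the full spread between libraries, which may be technical. In the set every 0 h value was 0. Floors cover counting error only, and more reads may lie behind a minimum if inputs were subtracted.

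Genes and coding sequences came from RefSeq ASM294v3, whose 3 nuclear chromosome lengths equal the last region ends of the table. Coordinates of regions are the table's, counted from 1. Coding stretches were read at genes on that build. Of the listed symbols 12 had no match. Regions named are the 12 highest at 24 h, the 5 highest per kb, the 5 with the smallest FDR, the 5 highest with a p of 1, the 5 on either side of the threshold, the widest and narrowest, those without a protein-coding gene, and the 4 highest genes per list, with all genes found for heterochromatin, meiosis and histones. The Tf2 genes, genes of the runs of 4, pfl6, pfl7, pfk1, pgi1, the lower translation factors and the genes with printed sequences were named after their values were seen. Alternatives were thresholds, width, overlap, scaling, adjustment, libraries A to E left out in turn and, for some results, 1 library at its minimum left out. Python 3.11.15 was used.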

Additional observations from a re-analysis of the deposited data

Results flagged for a closer look

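In some named regions 1 of the 5 libraries at 24 h stood apart from the others by Dixon's ratio, the gap to the nearest library over the whole range, with a critical value of 0.71. The ratio was 1 at grt1, cut6, SPOM_SPBC1348.12, tra1 (the region left out for its width), chromosome II 87538 to 89803 and contig AB325691 16232 to 18013, where library A alone held signal. It was 0.986 at bgs4, 0.941 at nup211, 0.888 at contig AB325691 14162 to 15383 and 0.809 at contig AB325691 11879 to 13315, again with library A highest. Over the set the critical value was passed at 238 of 454 regions. The libraries at their minimum count as values here, and the search gave them no reads in every region. Where 1 library alone held signal, the ratio is therefore 1 by construction. The rule also chose these regions for a high 24 h mean. The count of 238 thus cannot be set against a chance rate, and nothing is read from it.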

How the results depend on the processing

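The number of regions that meet the rule depended on the threshold: 762 at a 24 h mean of 8 or more and 188 at 32 or more, against 456. Leaving out 1 library at a time gave 122 to 611 regions, the lowest without 24 h library A and the highest without 0 h library D, and leaving out 0 h libraries was chosen after seeing the data. Scaling 24 h to the 0 h sum gave 628. The count of 268 called regions was the same at an FDR of 0.01 or 0.1 and with the adjustment over all listed regions, since every other region of the set had a p of 1. Width limits, overlap rules and the medians of width and GC content stayed within 1.5 times or 1 SD of the values given. limma called 0 regions of the set at an adjusted p of 0.05 with a pseudocount of 0.5 or 4 and without each of libraries A to E or 1 of the libraries at their minimum, the last chosen after seeing the data. Without adjustment it called 81 and 57 at these pseudocounts, both chosen after seeing the data, against 70. No paired analysis was possible because the tables hold 1 mean per group and recovered libraries carry no replicate number. Low regions rest on few reads, and depth per library limits them.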
